A study of Mus musculus with 60 samples.

Results

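The genes described here are 8 transcription factors of lipid synthesis and fat cell formation, Srebf1, Mlxipl, Nr1h3, Pparg, Ppara, Cebpa, Cebpb and Klf15, together with Fabp4, a cytoplasmic fatty acid carrier that is a classical PPARγ target and no transcription factor. They were taken by symbol, 9 of the 54343 symbols listed in each of 4 expression tables, and all 9 were found and passed the filter on low values in every table.

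The study measured bulk RNA from liver and inguinal white adipose tissue of diet-induced obese (DIO) mice, in 60 libraries that form 12 groups of 5 labelled biological replicates. In the Glp1r line the groups were Glp1rfl/fl mice given vehicle, Glp1rfl/fl mice given mGIPR-Ab/P1, and Glp1rWnt1-/- mice given vehicle. In the Gipr line they were Giprfl/fl mice given vehicle, Giprfl/fl mice given mGIPR-Ab/P1, and GiprSyn-/- mice given vehicle. Glp1r and Gipr encode receptors of 2 incretins, GLP-1 and GIP, which gut cells release after meals, and mGIPR-Ab/P1 is an antibody against the GIP receptor joined to a GLP-1 peptide, called the conjugate here. The knockouts are named for Wnt1 and Syn, and promoters of those names are commonly used to drive Cre recombinase in neural lineages, so that the receptor is lost there and not in every cell of the body. No knockout mouse received the conjugate, all groups were of DIO mice, and the labels used here state neither age nor sex. No body weights were used here, so how obese each group was at sampling is not known. Both comparisons of a table use the same 5 vehicle libraries, so a vehicle library that stands apart moves both of them.

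In liver, SREBP-1c (from Srebf1) is switched on by insulin and ChREBP (from Mlxipl) by glucose metabolites, and both activate genes of glycolysis and fatty acid synthesis, while LXRα (from Nr1h3) senses oxysterols and raises Srebf1 transcription. PPARα drives fatty acid oxidation in the fasting liver, and PPARγ, normally low there, rises in fatty liver and activates genes of lipid droplets. In fat, C/EBPβ acts early in differentiation, PPARγ and C/EBPα then maintain each other and the mature adipocyte, and KLF15 is a glucocorticoid-induced factor that acts on amino acid and glucose metabolism and in adipogenesis.

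Promoter sequences are shown for a start site of Srebf1, Mlxipl and Pparg, because these 3 genes are known to be controlled by other factors of the same network and because Mlxipl and Pparg changed in liver (below). They are RefSeq windows of 250 bases before to 50 bases after the transcription start on build GRCm38.p6, written 5′ to 3′ on the strand of the gene, with the named motif in capitals. Srebf1 has 3 start sites in that table, and the one nearest to the gene's end, on the minus strand of chromosome 11 at chr11:60210422-60210721, holds 1 match to the LXR element (GGTNA and GGTCA separated by 5 bases of any kind), at -182 from the start on the opposite strand. Mlxipl has 2, and the upstream one, on the plus strand at chr5:135089640-135089939, holds 1 E box CACGTG, the core of the sites bound by ChREBP and USF, at -98. Pparg has 3, and the one farthest downstream, on the plus strand at chr6:115421816-115422115, holds 2 C/EBP sites TTGCNNAA, at -215 and -16.
Srebf1: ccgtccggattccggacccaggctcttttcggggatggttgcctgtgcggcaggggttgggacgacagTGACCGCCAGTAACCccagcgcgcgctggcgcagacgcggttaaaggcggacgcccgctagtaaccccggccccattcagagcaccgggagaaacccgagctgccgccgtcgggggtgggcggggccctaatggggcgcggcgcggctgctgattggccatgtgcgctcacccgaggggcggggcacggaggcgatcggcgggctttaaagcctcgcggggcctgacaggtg
Mlxipl: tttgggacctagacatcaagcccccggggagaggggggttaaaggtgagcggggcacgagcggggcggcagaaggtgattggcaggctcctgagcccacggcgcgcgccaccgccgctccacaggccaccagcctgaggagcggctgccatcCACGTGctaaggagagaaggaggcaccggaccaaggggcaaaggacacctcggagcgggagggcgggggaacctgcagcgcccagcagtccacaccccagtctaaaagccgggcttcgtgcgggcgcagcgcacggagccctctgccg
Pparg: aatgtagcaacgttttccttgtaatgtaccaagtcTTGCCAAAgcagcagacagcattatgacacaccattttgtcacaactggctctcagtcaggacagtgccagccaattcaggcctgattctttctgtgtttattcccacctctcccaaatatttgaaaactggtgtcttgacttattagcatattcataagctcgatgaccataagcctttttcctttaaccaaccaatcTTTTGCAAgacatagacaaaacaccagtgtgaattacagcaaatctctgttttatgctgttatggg

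Both strands of 32851 promoter windows of the same length were searched for each motif, and overlaps with other motifs were allowed. The LXR element was present in 0.207% of them, the E box in 7.15% and the C/EBP site in 10.8%. The downstream start of Mlxipl held a sterol regulatory element TCACNCCAC at -136, a motif present in 1.24% of windows, and the single Klf15 window held 3 E boxes, at -228, -172 and -3. In all, 14 windows of 8 of the 9 genes were found, and Fabp4 had none. A match is a run of letters and no evidence of binding, and the expression tables give 1 value per gene, so transcripts from different start sites cannot be told apart here.

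The tissues matched their labels. The summed level of 8 hepatocyte markers lay between 37164 and 61344 FPKM in the liver libraries and between 2.76 and 361 FPKM in the fat libraries, while that of 8 adipocyte markers lay between 20.9 and 162 FPKM in liver and between 4749 and 12883 FPKM in fat. FPKM counts fragments per kilobase of transcript, scaled to library size. Estimated depth was 31.8 to 57.4 M fragments per library in liver and 29.9 to 64.4 M fragments in fat. Glp1r reached at most 0.356 FPKM in any library, and Gipr at most 0.0149 FPKM in liver and 2.57 to 7.46 FPKM in the fat of the Gipr line, with 4.002 ± 1.11 FPKM in GiprSyn-/- fat and 6.15 ± 1.12 FPKM with vehicle (SD, n = 5 each), so these tissue levels do not check a deletion confined to other cells. Some libraries stood apart. In the Gipr line, 9 liver libraries (4 vehicle, 4 conjugate and 1 knockout) carried a mean log2 pancreas acinar marker score over 2, against at most 0.965 in the other 21 liver libraries. In fat, 6 libraries (2 knockout and 1 vehicle of the Glp1r line, 1 conjugate and 2 knockout of the Gipr line) had a B cell marker score over 5. In the Gipr line, 3 liver and 2 fat libraries carry library numbers from a higher series than the rest and differed in many genes, described with Cebpb. Macrophage markers summed to 682 FPKM in GiprSyn-/- liver replicate 5, against 143 to 288 FPKM in the other 14 livers of that table, and the highest Kupffer cell sum of that group was 615 FPKM. In fat of the Glp1r line conjugate replicate 5 had a macrophage sum of 3409 FPKM, against 386 to 1076 FPKM in the other 14 libraries, and a lipid-associated macrophage score of 8.48 against 5.25 to 6.84. The hepatocyte sum of 361 FPKM came from a fat library of the Glp1r vehicle group, while no fat library of the other groups was above 69.1 FPKM.

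Liver and fat differed most for Fabp4, Ppara, Pparg and Mlxipl, whose ranges over the 30 libraries of each tissue did not overlap. The share of all genes with separate ranges was not computed, so this number of genes is not read as a result. The median of Fabp4 was 12.99 FPKM in liver and 17377 FPKM in fat, where it had the highest mean of all genes. Pparg had a median of 6.89 FPKM in liver and 102 FPKM in fat. Ppara was the reverse, at 41.7 FPKM in liver and 1.22 FPKM in fat, and Mlxipl stood at 82.7 FPKM in liver and 18.4 FPKM in fat. The other 5 genes were expressed in both tissues with overlapping ranges. Cebpa had medians of 121 FPKM in liver and 185 FPKM in fat, Srebf1 59.2 and 51.6 FPKM, and Nr1h3 43.8 and 46.9 FPKM. Klf15 had 50.9 and 20.6 FPKM, and Cebpb 24.2 and 13.8 FPKM. These are levels in tables that were normalized separately, so no test was run, and tissue and table cannot be told apart.

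**Figure D1:**
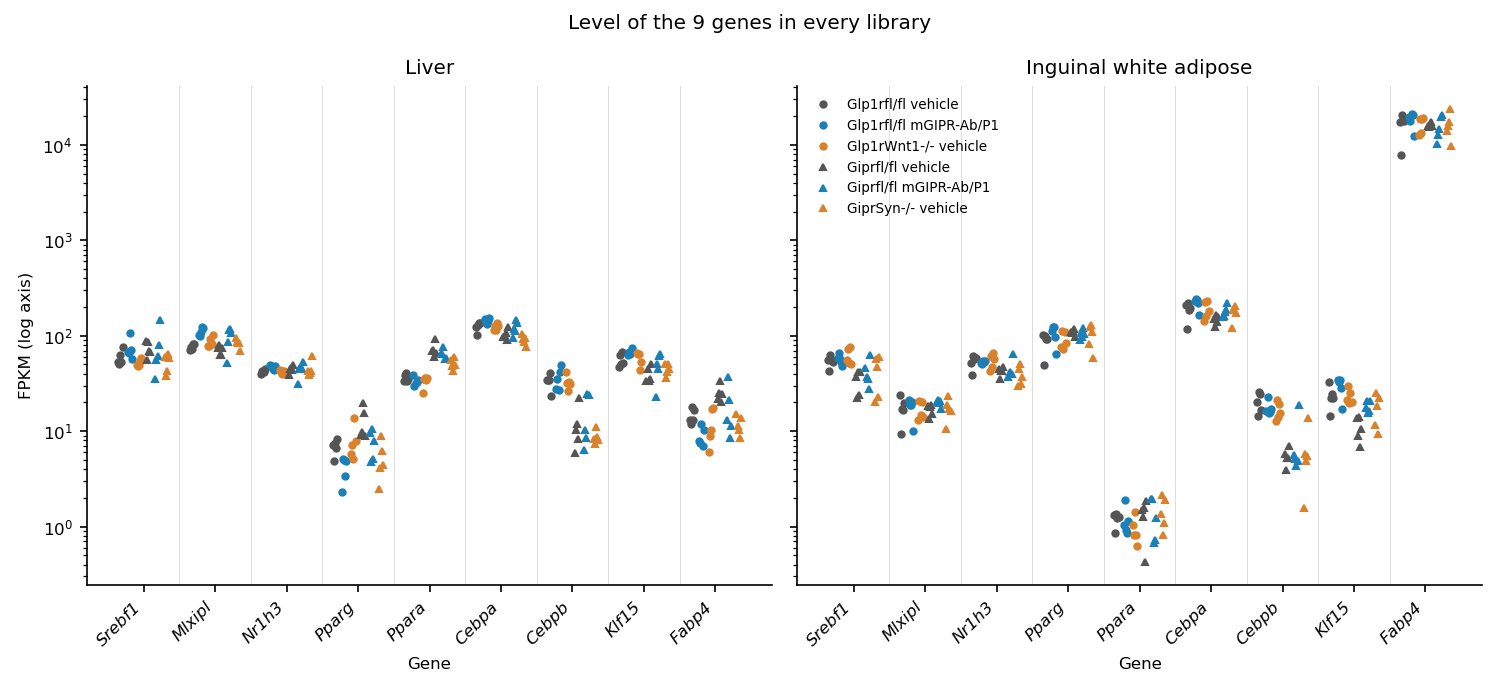
FPKM of the 9 genes on a log axis in the 30 liver libraries (left) and the 30 fat libraries (right), 1 point per library, with circles for the Glp1r line, triangles for the Gipr line and colours for the 3 groups of a line. Fabp4 lies near 12.99 FPKM in liver and 17377 FPKM in fat, Ppara at 41.7 and 1.22 FPKM.

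Between the lines, Ppara in liver was the only gene whose lines did not overlap, with 42.6 to 92.1 FPKM in the Gipr line and 25.4 to 40.7 FPKM in the Glp1r line. When the 6 groups of a gene were ranked by their mean, neighbours differed by more than the larger of their SDs in 6 of 45 pairs in liver and in 2 of 45 pairs in fat. In liver the 6 pairs were 2 of Ppara and 1 each of Cebpa, Cebpb, Fabp4 and Srebf1, and in fat 1 each of Cebpb and Klf15. For Mlxipl, Nr1h3, Pparg and Klf15 in liver and for the other 7 genes in fat, no neighbouring groups in the order differed beyond their spread. How often all genes show separate lines, or neighbouring groups that differ beyond their spread, was not computed. These counts are therefore not read as results. Line and table cannot be told apart, so the levels of the 2 lines are given without a test.

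Differences within a table were tested with limma on log2(FPKM + 1), with Benjamini-Hochberg adjustment over all genes tested, and a gene is said to have risen or fallen only where the adjusted p was under 0.05. Fold changes are on that log2 scale, which damps the change of low genes such as Ppara in fat. In liver of the Glp1r line, 2 of the 9 genes rose with the conjugate, against 10.4% of all genes called in that comparison, and 6 of the 9 had an unadjusted p under 0.05, as did 27.0% of all genes (2931 of 10858). In the Glp1rWnt1-/- liver 0 of 9 were called by limma and 0 had an unadjusted p under 0.05, in a comparison that called 0.0% of all genes and had 1048 of 10858 at an unadjusted p under 0.05. In liver of the Gipr line, 0 of 9 were called with the conjugate, against 4.34% of all genes, and 1 had an unadjusted p under 0.05, as did 20.1% of all genes. In GiprSyn-/- livers 3 of 9 fell, against 10.4% of all genes called. In fat of the Glp1r line, 0 of 9 were called with the conjugate and 0 had an unadjusted p under 0.05, against 3.39% of all genes called and 17.9% at that unadjusted level. In Glp1rWnt1-/- fat 0 of 9 were called, where limma called 0.0% of all genes and 593 of 12686 had an unadjusted p under 0.05. In fat of the Gipr line, 0 of 9 were called with the conjugate, against 7.02% of all genes, and 0 of 9 in GiprSyn-/- mice, against 12.3%, with 1 gene (Klf15) at an unadjusted p under 0.05 in each, against 24.1% and 31.1% of all genes at that level. The limma interaction test of the conjugate effect between the lines called 0 of 9 genes in liver and in fat (0 of 9 in each at an unadjusted p under 0.05). It called 0.0% of all genes in liver (624 of 10640 at an unadjusted p under 0.05) and 0.0% in fat (436 of 12541).

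**Figure D2:**
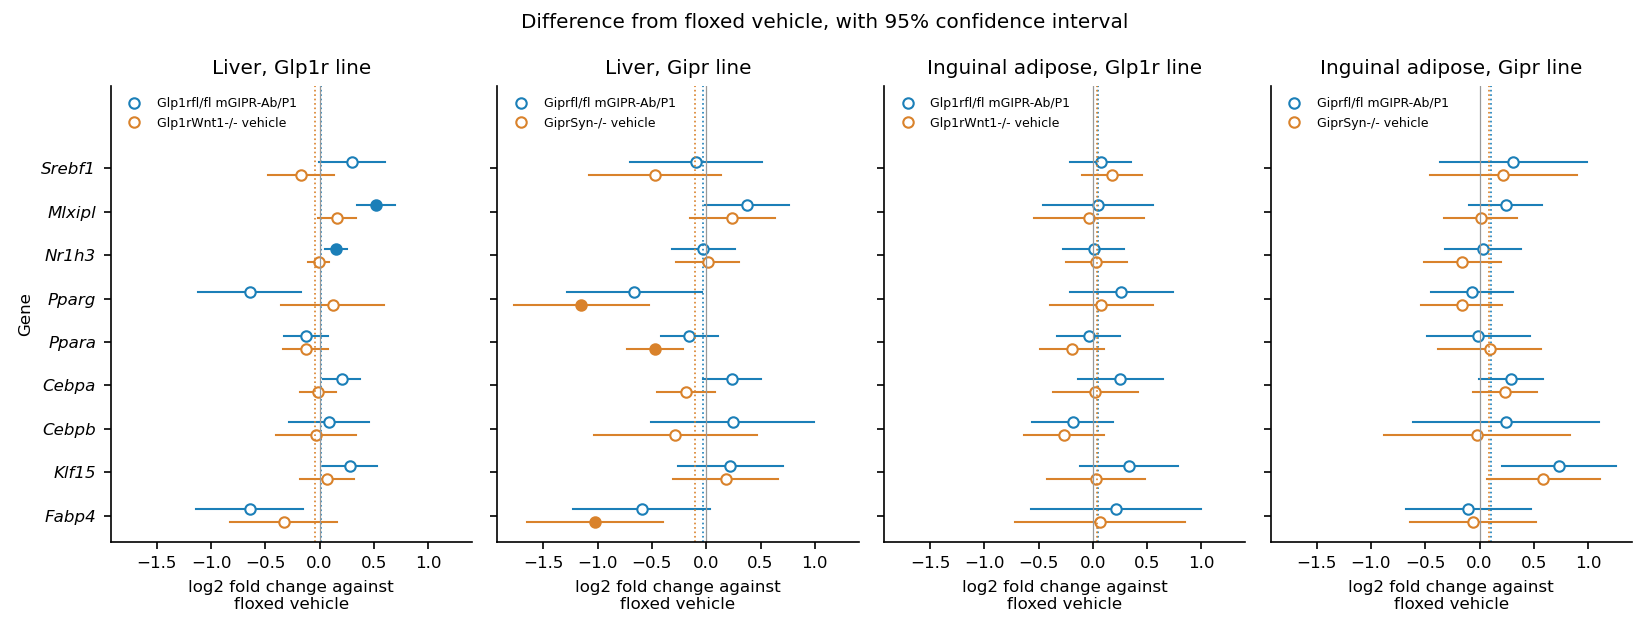
Log2 fold change against floxed vehicle of the 9 genes (rows) in the 4 tables (panels), for the conjugate (blue) and the knockout (orange), with 95% confidence intervals, filled circles for an adjusted p under 0.05 and dotted lines for the median of all genes tested. Filled circles are Mlxipl and Nr1h3 with the conjugate in the Glp1r line and Pparg, Ppara and Fabp4 in GiprSyn-/- mice, all in liver.

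Mlxipl, the gene of ChREBP, was higher in all 5 conjugate livers of the Glp1r line than in any vehicle liver. The vehicle libraries had 70.7, 77.1, 72.9, 81.2 and 81.8 FPKM and the conjugate libraries 102, 98.7, 109, 122 and 122 FPKM. The groups did not overlap, with means of 76.7 ± 4.93 and 111 ± 10.8 FPKM (SD, n = 5 each). The gene rose by 0.52 ± 0.08 on the log2 scale (limma adjusted p = 0.00396), a ratio of means of 1.44. The estimated depth of those conjugate libraries was 34.1 ± 1.62 M fragments against 50.04 ± 2.90 M fragments in the vehicle libraries, with no overlap (exact permutation p = 0.00794, the smallest that 5 against 5 allows, adjusted p = 0.0635 over 8 comparisons). With depth as a term in the fit the Mlxipl change was 0.14 ± 0.24 (limma adjusted p = 0.872) and no gene of the 10858 tested was called, so depth and conjugate cannot be told apart for these livers. The same limit holds for every gene and gene list in that comparison.

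In liver of the Gipr line, where depth overlapped between the groups, Mlxipl had 74.1, 79.1, 62.6, 62.4 and 74.7 FPKM with vehicle and 51.8, 86.4, 115, 118 and 106 FPKM with the conjugate. 4 of the 5 conjugate livers lay above every vehicle liver and replicate 1 lay below all of them. Conjugate replicates 4 and 5, at 118 and 106 FPKM, and vehicle replicate 5 carry the higher library numbers described with Cebpb. Mlxipl had 74.7 to 118 FPKM in those libraries and 51.8 to 115 FPKM in the others of that table. Conjugate replicate 1 did not meet the rule for a library far from its group that is used below. The log2 difference was 0.38 ± 0.18 (adjusted p = 0.264) in limma with a 95% interval of -0.01 to 0.77, and without conjugate replicate 1 it was 0.58 ± 0.11 (limma adjusted p = 0.0115). That fit leaves out the only conjugate liver that went the other way, so it is not read as a rise. The fit without the higher library numbers is not reported here for Mlxipl. In GiprSyn-/- livers the log2 difference of Mlxipl was 0.24 ± 0.18 (adjusted p = 0.47) and in Glp1rWnt1-/- livers 0.16 ± 0.08 (adjusted p = 0.56). The interaction between the lines was -0.14 ± 0.21, so the conjugate effect on Mlxipl was not shown to differ between them. In fat Mlxipl ranged from 9.27 to 24.04 FPKM over all 30 libraries, and its 4 log2 differences lay between -0.03 and 0.24.

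The ChREBP target list, 8 genes of fructose and glucose metabolism and lipogenesis, did not rise with the gene. In the conjugate livers of the Glp1r line 0 of its 8 measured genes rose and 2 fell, among them Gpd1 (-0.55 ± 0.16, adjusted p = 0.0416, 103 ± 31.2 against 145 ± 13.7 FPKM), with a median log2 change of -0.18 against 0.01 for all genes. Gpd1 makes glycerol phosphate for triglyceride synthesis. Among all genes tested, 10.4% were called in that comparison and 10.4% in GiprSyn-/- livers. In the conjugate livers of the Gipr line 1 of 8 fell (Gpd1, -0.82 ± 0.21 (adjusted p = 0.0444) in limma), against 4.34% of all genes called, and the list median was -0.43. In GiprSyn-/- livers 0 of 8 rose and 4 fell, among them Pklr, the liver pyruvate kinase, with a log2 change of -0.95 ± 0.26 (adjusted p = 0.0297) in limma, with a list median of -0.65 against -0.11 for all genes. In Glp1rWnt1-/- livers 0 of 8 were called by limma, with a list median of -0.14. In fat 5 of the 8 were tested. Of all genes there, 3.39% were called with the conjugate in the Glp1r line, 7.02% in the Gipr line and 12.3% in GiprSyn-/- mice. With the conjugate 1 rose in the Glp1r line, Txnip, a glucose-induced gene, at 0.88 ± 0.17 (adjusted p = 0.0161) in limma, and 0 fell. In the Gipr line 2 rose with the conjugate and 0 fell, Txnip at 0.59 ± 0.14 (adjusted p = 0.0243) and Khk, the fructose kinase, at 0.73 ± 0.19 (adjusted p = 0.0316) in limma. In GiprSyn-/- fat 1 rose and 1 fell, Txnip at 0.53 ± 0.14 (adjusted p = 0.0282) and Gpd1 at -0.99 ± 0.25 (adjusted p = 0.0227) in limma, and in Glp1rWnt1-/- fat limma called 0 of 5. The 3 genes listed as ChREBP partners were called in none of the 8 comparisons.

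Srebf1 was called in no comparison. In liver of the Glp1r line it had 53.1, 50.1, 62.5, 53.03 and 75.7 FPKM with vehicle and 68.3, 65.99, 107, 70.7 and 56.9 FPKM with the conjugate, groups that overlap and in which conjugate replicate 3 is the highest. The log2 difference was 0.30 ± 0.14 (adjusted p = 0.187) in limma. In GiprSyn-/- livers it was -0.47 ± 0.28 (adjusted p = 0.348), with 52.9 ± 11.6 FPKM against 73.2 ± 13.4 FPKM with vehicle. The conjugate livers of that line spread widest, from 35.1 to 145 FPKM, with replicate 5 the highest, and differed by -0.10 ± 0.28 (adjusted p = 0.913). In fat all 4 log2 differences were above 0, from 0.07 to 0.31, and none passed.

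Many genes that SREBP-1 activates fell in conjugate livers of the Glp1r line and in GiprSyn-/- livers. Of 14 listed SREBP-1 targets 13 were tested in each liver table. Of all genes, 10.4% were called with the conjugate in the Glp1r line, 4.34% with it in the Gipr line and 10.4% in GiprSyn-/- mice. With the conjugate in the Glp1r line 9 of 13 fell and 0 rose, led by Acacb (-1.24 ± 0.25, adjusted p = 0.0103, 7.87 ± 3.29 against 19.4 ± 4.98 FPKM), an acetyl-CoA carboxylase, Elovl5 at -1.12 ± 0.25 (adjusted p = 0.0148), an elongase, and Acss2 at -1.07 ± 0.22 (adjusted p = 0.0102), which makes acetyl-CoA from acetate. The list median was -0.84 against 0.01 for all genes. Depth and conjugate cannot be told apart for these livers. In GiprSyn-/- livers 10 of 13 fell and 0 rose, led by Scd1 (-2.96 ± 0.50, adjusted p = 0.00168, 219 ± 80.01 against 1920.3 ± 1219 FPKM), the stearoyl-CoA desaturase, Me1 at -2.72 ± 0.31 (adjusted p = 0.000111) and Elovl5 at -2.47 ± 0.23 (adjusted p = 2.50e-05), with a list median of -1.27. With the conjugate in the Gipr line 1 of 13 fell (Elovl5, -1.24 ± 0.23 (adjusted p = 0.0101) in limma), against 4.34% of all genes called, and the list median was -0.76. In Glp1rWnt1-/- livers limma called 0 of 13 and the list median was -0.55.

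In fat the same list moved in both directions. Among all genes, 3.39% were called with the conjugate in the Glp1r line, 7.02% in the Gipr line and 12.3% in GiprSyn-/- mice. With the conjugate 1 of 14 rose and 4 fell in the Glp1r line and 2 rose and 6 fell in the Gipr line, and in GiprSyn-/- fat 2 rose and 4 fell. Fasn, the fatty acid synthase, fell in all 3, with a log2 change of -1.08 ± 0.21 (adjusted p = 0.0193), -1.51 ± 0.30 (adjusted p = 0.0102) and -1.21 ± 0.30 (adjusted p = 0.0188) in limma, and so did Acss2, with a log2 change of -1.27 ± 0.22 (adjusted p = 0.00955), -1.56 ± 0.22 (adjusted p = 0.00123) and -1.13 ± 0.22 (adjusted p = 0.00593). In Glp1rWnt1-/- fat limma called 0 of 14. Among the 8 genes that process SREBP or act with it, Insig2, which holds the SREBP precursor in the endoplasmic reticulum, fell in 3 liver comparisons, with a log2 change of -1.08 ± 0.26 (adjusted p = 0.0211) and -1.05 ± 0.17 (adjusted p = 0.00398) with the conjugate and -0.95 ± 0.17 (adjusted p = 0.00207) in GiprSyn-/- mice. In fat of the Gipr line it was Insig1, its paralogue, that fell, with a log2 change of -1.29 ± 0.21 (adjusted p = 0.0039) and -1.22 ± 0.21 (adjusted p = 0.00404). Srebf2, the cholesterol-directed relative of Srebf1, fell with a log2 change of -0.36 ± 0.09 (adjusted p = 0.0289) in the conjugate livers of the Glp1r line, where Usf1 rose by 0.25 ± 0.07 (adjusted p = 0.0269).

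**Figure D3:**
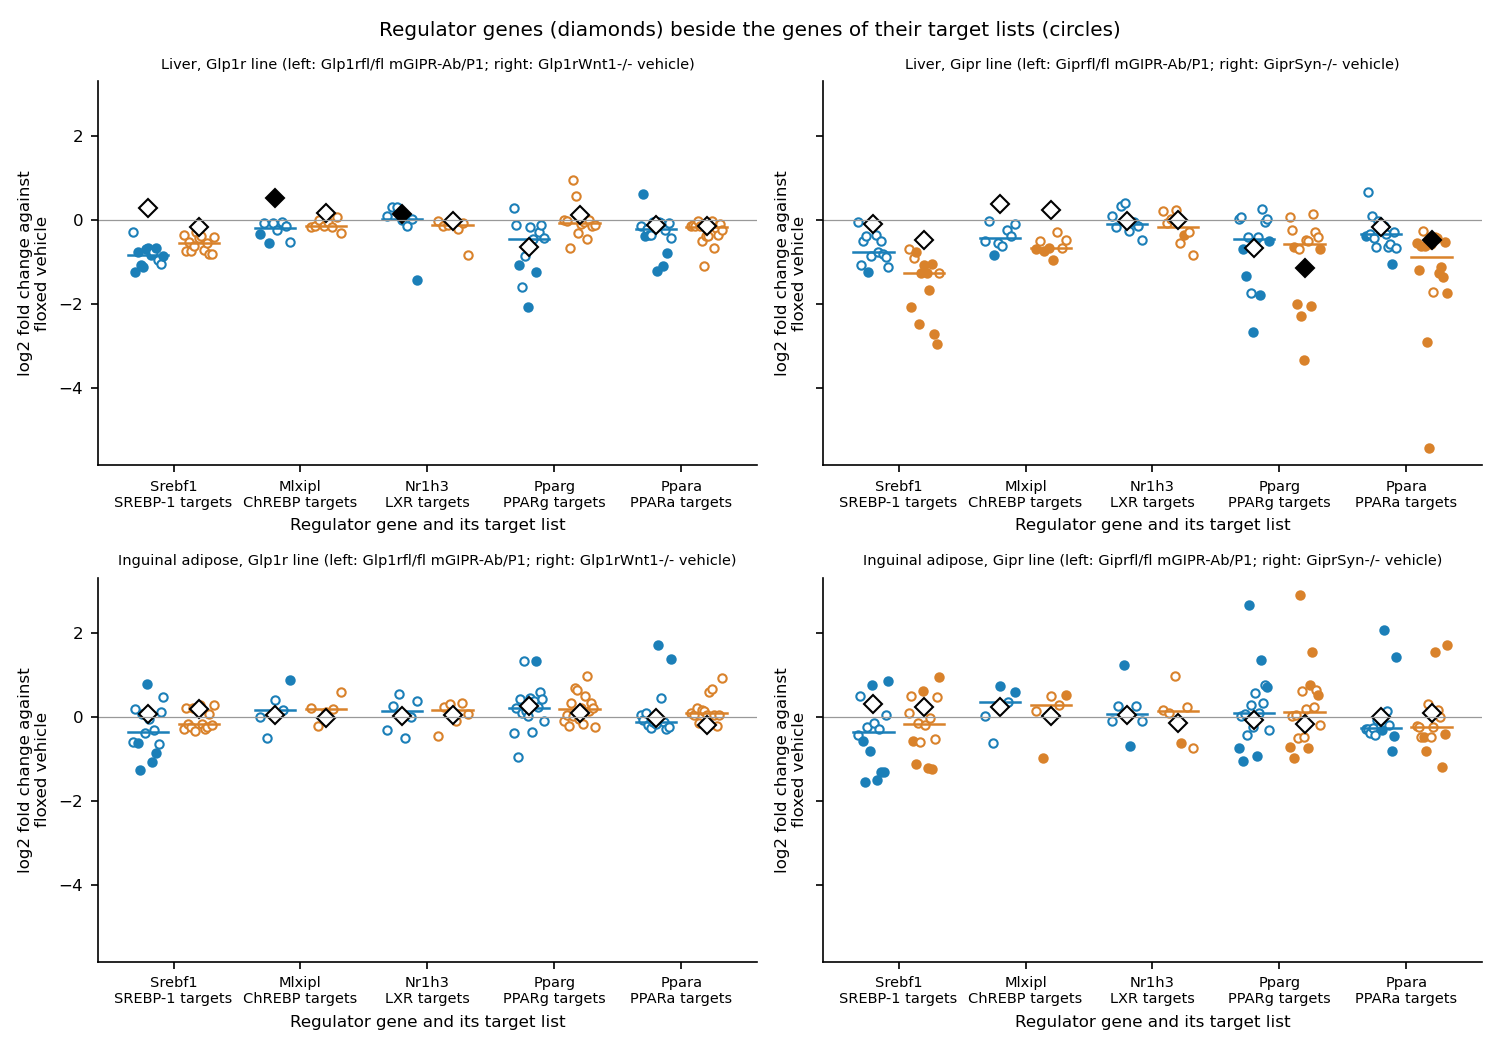
Log2 fold change against floxed vehicle of 5 regulator genes (diamonds) and of the genes of their target lists (circles, 1 per gene, with a line at the list median), in the 4 tables, conjugate left and knockout right, filled where the adjusted p was under 0.05. In conjugate livers of the Glp1r line the Mlxipl diamond lies at 0.52 and the Srebf1 diamond at 0.30, while the medians of their target lists lie at -0.18 and -0.84. Depth and conjugate cannot be told apart for those livers.

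Nr1h3, the gene of LXRα, rose in the conjugate livers of the Glp1r line by the smallest margin of the called genes. Vehicle libraries had 39.6, 42.6, 43.1, 41.4 and 44.3 FPKM and conjugate libraries 49.8, 47.8, 45.2, 44.2 and 48.4 FPKM. 4 of the 5 conjugate libraries lay above every vehicle library and replicate 4 fell inside the vehicle range. The change was 0.15 ± 0.05 (limma adjusted p = 0.0493), and leaving out 1 library at a time limma lost the call for 9 of the 10 libraries (adjusted p from 0.0427 to 0.119). It was also lost under median-of-ratios scaling (limma adjusted p = 0.0787), rescaling to a common sum (0.163), a fit of the 2 groups alone (0.0742), the pancreas term (0.0974) and without the filter on low values (0.0735). In the other 7 comparisons its log2 difference lay between -0.16 and 0.03 and none passed. Of 7 LXR targets tested there, 1 fell, against 10.4% of all genes called. It was Pltp, a phospholipid transfer protein, at -1.42 ± 0.23 (adjusted p = 0.00458) in limma, and the list median was 0.03. Rxra and Rxrb, the RXR genes whose products pair with LXR and the PPARs, rose there by 0.17 ± 0.05 (adjusted p = 0.039) and 0.21 ± 0.06 (adjusted p = 0.0324). The deeper vehicle libraries noted for Mlxipl are the controls of these changes too. In the conjugate livers of that line the erythrocyte marker score was also lower, 6.48 against 7.36 with vehicle (exact permutation p = 0.00794, adjusted p = 0.045 over 17 lists). The part of erythrocytes in the changes of Mlxipl and Nr1h3 was not tested. The score of the mammary or skin epithelium list was 2.71 against 2.95 with vehicle (exact permutation p = 0.00794, adjusted p = 0.045 over 17 lists). In livers of that line 3 of its 5 markers had a median under 1 FPKM and 1 was at 0 in all 15 libraries. This score is therefore not read as an amount of such cells, and what it reflects was not tested.

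Pparg, which encodes the master regulator of adipocytes and of lipid droplet genes in fatty liver, fell in GiprSyn-/- livers. Vehicle livers had 9.08, 9.76, 19.7, 15.4 and 8.90 FPKM and GiprSyn-/- livers 2.45, 4.08, 8.97, 6.22 and 4.40 FPKM. 4 of the 5 knockout livers lay below every vehicle liver and replicate 3 lay inside the vehicle range. The change was -1.15 ± 0.29 (limma adjusted p = 0.0202), with means of 5.22 ± 2.48 and 12.6 ± 4.82 FPKM, 2.41-fold lower (SD, n = 5 each). The call was lost in limma without knockout replicate 1 or 2, without vehicle replicate 3 or 4 (adjusted p up to 0.0617), under quantile normalization (adjusted p = 0.0512) and without the filter on low values (adjusted p = 0.0558). With the conjugate Pparg stood at -0.66 ± 0.29 (adjusted p = 0.219) in the Gipr line and -0.64 ± 0.22 (adjusted p = 0.0775) in the Glp1r line in limma, neither of which passed, and in Glp1rWnt1-/- livers at 0.12 ± 0.22 (adjusted p = 0.909). In bulk tissue, fewer cells of a type and less RNA per cell cannot be told apart.

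Fabp4, which carries fatty acids in adipocytes and macrophages, fell in the same GiprSyn-/- livers. Vehicle livers had 21.7, 25.04, 33.7, 20.3 and 24.2 FPKM and GiprSyn-/- livers 15.1, 11.4, 10.3, 8.45 and 13.7 FPKM, and the groups did not overlap. The change was -1.03 ± 0.29 (limma adjusted p = 0.0373), 2.12-fold lower in the mean. Leaving out 1 library at a time, limma lost the call for 8 of the 10 libraries (adjusted p up to 0.107). It was also lost under quantile normalization at -0.86 ± 0.29 (adjusted p = 0.102), under median-of-ratios scaling at -0.89 ± 0.28 (adjusted p = 0.0818) and without the filter on low values at -1.03 ± 0.30 (adjusted p = 0.0955) in limma. With the conjugate Fabp4 stood at -0.60 ± 0.29 (adjusted p = 0.277) in the Gipr line and -0.64 ± 0.23 (adjusted p = 0.0862) in the Glp1r line in limma. Among other fatty acid binding proteins, of which 5 were tested in liver of the Gipr line and 4 in that of the Glp1r line, Fabp2, the intestinal form, fell in GiprSyn-/- livers with a log2 change of -1.06 ± 0.16 (adjusted p = 0.000655) and in conjugate livers of the Glp1r line with a log2 change of -0.54 ± 0.13 (adjusted p = 0.0203).

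Ppara, the gene of the fasting regulator of fatty acid oxidation, also fell in GiprSyn-/- livers. Vehicle livers had 69.6, 71.2, 59.3, 92.1 and 65.5 FPKM and GiprSyn-/- livers 55.9, 47.9, 42.6, 59.8 and 49.3 FPKM. The groups overlapped by 1 library on each side, knockout replicate 4 and vehicle replicate 3. The change was -0.47 ± 0.12 (limma adjusted p = 0.0221), and under quantile normalization and median-of-ratios scaling it was -0.30 and -0.33 and did not pass (limma adjusted p = 0.27 and 0.178). It was also lost without knockout replicate 2 or 3 or vehicle replicate 4 (limma adjusted p up to 0.0636). No other comparison in liver called Ppara.

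**Figure D4:**
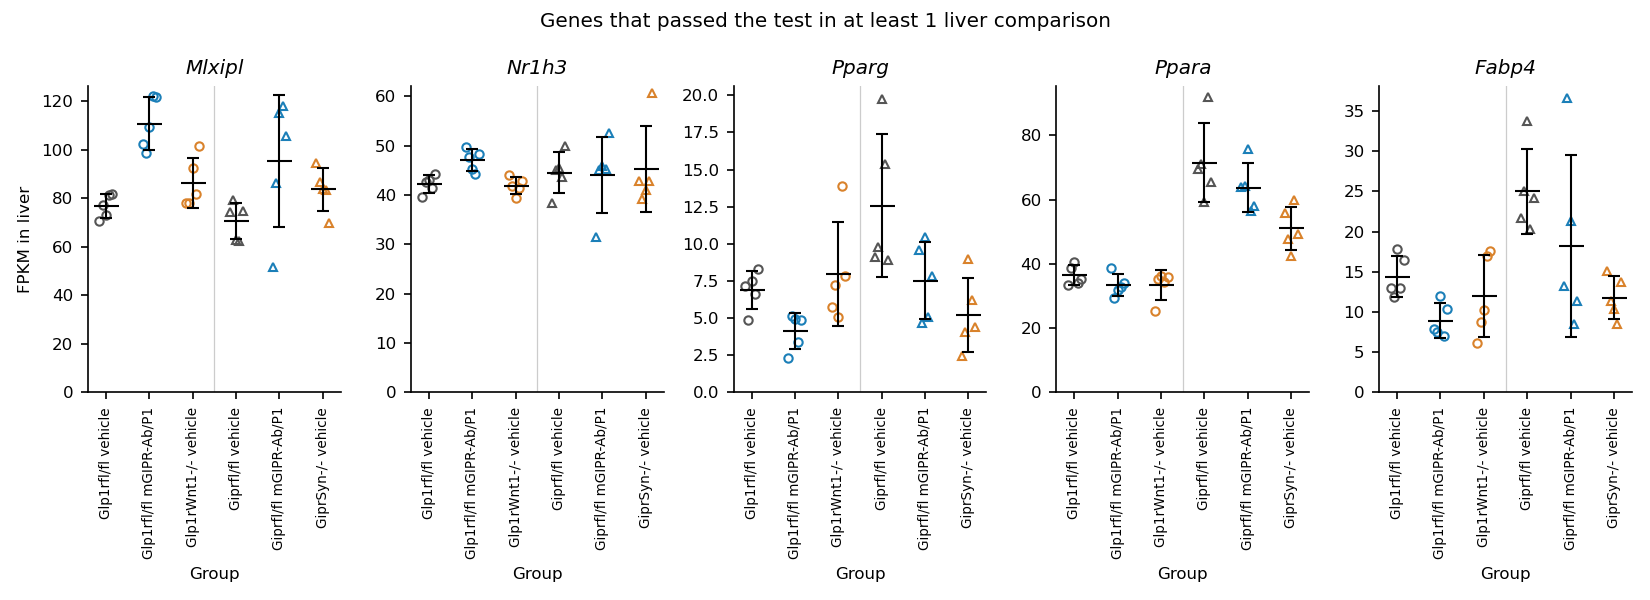
FPKM in liver of the 5 genes that passed in at least 1 liver comparison, 1 panel per gene and 1 point per library, in the 6 groups (circles for the Glp1r line, triangles for the Gipr line), with the group mean and its SD as bars. Mlxipl with the conjugate in the Glp1r line and Fabp4 in GiprSyn-/- mice do not overlap with their vehicle groups.

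Target genes of both PPARs were lower in GiprSyn-/- livers. Among all genes, 10.4% were called there, 4.34% with the conjugate in the Gipr line and 10.4% with it in the Glp1r line. Of 16 PPARα targets tested 14 fell and 0 rose, led by Cyp4a14 (-5.42 ± 0.43, adjusted p = 6.00e-06, 4.77 ± 4.24 against 209 ± 53.5 FPKM), Cyp4a10 at -2.90 ± 0.33 (adjusted p = 0.000122), both fatty acid hydroxylases, and Vnn1 at -1.74 ± 0.27 (adjusted p = 0.000863), a pantetheinase. The list median was -0.87 against -0.11 for all genes. Of 14 PPARγ targets 6 fell and 0 rose, led by Cidec (-3.32 ± 0.46, adjusted p = 0.000386, 2.11 ± 0.909 against 36.8 ± 27.9 FPKM), a lipid droplet protein, Cidea at -2.28 ± 0.64 (adjusted p = 0.0339), its relative, and Mogat1 at -2.04 ± 0.25 (adjusted p = 0.000173), a monoacylglycerol acyltransferase, with a list median of -0.57. With the conjugate in the Gipr line 5 of 14 PPARγ targets fell and 0 rose, with Cidec at -2.65 ± 0.46 (adjusted p = 0.00689) and Cd36, a fatty acid transporter, at -1.33 ± 0.22 (adjusted p = 0.00519), and 2 of 16 PPARα targets fell. In the Glp1r line with the conjugate 3 of 12 PPARγ targets fell, with Cidec at -2.07 ± 0.62 (adjusted p = 0.0448), and 5 of 16 PPARα targets fell and 1 rose, Fgf21, a fasting hormone, falling with a log2 change of -1.21 ± 0.25 (adjusted p = 0.0113). Rxrg, a PPAR partner, fell with the conjugate in the Gipr line with a log2 change of -0.56 ± 0.13 (adjusted p = 0.0276) and in GiprSyn-/- livers with a log2 change of -0.87 ± 0.13 (adjusted p = 0.000513).

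Scores of several marker lists also differed in liver. In GiprSyn-/- livers the mean log2 score of the 8 adipocyte markers was 1.43 against 2.12 with vehicle (exact permutation p = 0.00794, adjusted p = 0.045 over 17 lists), and their summed level was 27.2 to 32.3 FPKM against 48.3 to 109 FPKM with vehicle. In conjugate livers of the Glp1r line the score was 1.66 against 2.15 with vehicle (exact permutation p = 0.00794, adjusted p = 0.045 over 17 lists). Cidec belongs to both the adipocyte and the PPARγ target list, and it fell in both of these comparisons. In livers of each line 4 of the 8 adipocyte markers had a median under 1 FPKM. Adipoq, also on the list, differed by -0.23 ± 0.36 (limma adjusted p = 0.764) in GiprSyn-/- livers. The adipocyte score in liver is therefore not read as an amount of adipocytes. In liver of the Glp1r line Lep was at 0 in every library and Adipoq reached at most 0.0476 FPKM. In the Gipr line these genes were above 0 in most livers. Lep, the leptin gene, had 0.267 ± 0.197 FPKM with vehicle, 0.0853 ± 0.102 FPKM with the conjugate and 0.0329 ± 0.0371 FPKM in GiprSyn-/- mice. Plin1, an adipocyte lipid droplet protein, had 0.323 ± 0.239, 0.315 ± 0.386 and 0.171 ± 0.116 FPKM, and Adipoq, the adiponectin gene, 0.830 ± 0.494, 1.19 ± 1.43 and 0.583 ± 0.538 FPKM in the same order (SD, n = 5 each). Conjugate replicate 2 had the highest Adipoq and the highest Fabp4 of the 15 livers, 3.36 and 36.6 FPKM, and in fat of that line the median of Adipoq was 1903 FPKM. The part of adipocyte RNA in the Fabp4 levels of liver was not tested. The lipid-associated macrophage score was 2.32 against 2.84 with vehicle (exact permutation p = 0.0238, adjusted p = 0.0578 over 17 lists) in GiprSyn-/- livers, the erythrocyte score 6.82 against 7.44 with vehicle (exact permutation p = 0.00794, adjusted p = 0.045 over 17 lists) and the hepatocyte score 10.92 against 10.70 with vehicle (exact permutation p = 0.00794, adjusted p = 0.045 over 17 lists). Pancreas acinar transcripts summed to 37.7 to 2352 FPKM in GiprSyn-/- livers and 13.7 to 3542 FPKM with vehicle. With the pancreas score as a term, the changes were -1.50 ± 0.21 (adjusted p = 0.000504) for Pparg, -0.44 ± 0.13 (adjusted p = 0.0441) for Ppara and -0.98 ± 0.33 (adjusted p = 0.0656) for Fabp4 in limma. Without knockout replicate 5, the library with the high macrophage sum, they were -1.12 ± 0.32 (adjusted p = 0.0311), -0.46 ± 0.13 (adjusted p = 0.0331) and -1.08 ± 0.32 (adjusted p = 0.0359) in limma. The part of the other cell types in these results was not tested.

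In fat, Pparg, Ppara and Fabp4 passed in no comparison. Pparg ranged from 48.98 to 129 FPKM over the 30 libraries, and its log2 differences lay between -0.16 and 0.26. Fabp4 ranged from 7863 to 23958 FPKM and Ppara from 0.424 to 2.12 FPKM. Their targets moved in both directions. The shares of all genes called were 7.02% with the conjugate in the Gipr line, 12.3% in GiprSyn-/- fat and 3.39% with the conjugate in the Glp1r line. With the conjugate in the Gipr line 3 of 16 PPARγ targets rose and 3 fell, with Cfd (2.67 ± 0.59, adjusted p = 0.0176, 2796 ± 1910.0 against 415 ± 253 FPKM), the adipokine adipsin, as the largest change, Pck1, which supplies glycerol for triglycerides, at 1.35 ± 0.27 (adjusted p = 0.0111) and Agpat2, an acyltransferase, at -1.05 ± 0.21 (adjusted p = 0.0111). In GiprSyn-/- fat 4 rose and 3 fell, Cfd at 2.89 ± 0.59 (adjusted p = 0.00851) and Pck1 at 1.54 ± 0.27 (adjusted p = 0.0042), and with the conjugate in the Glp1r line 1 rose, Pck1 at 1.34 ± 0.21 (adjusted p = 0.00702). Fabp5, the epidermal relative of Fabp4, fell in fat of the Gipr line with a log2 change of -1.34 ± 0.23 (adjusted p = 0.00503) with the conjugate and -1.39 ± 0.23 (adjusted p = 0.00364) in GiprSyn-/- mice, and it is also 1 of the 6 lipid-associated macrophage markers, whose score was 5.48 against 6.59 with vehicle (exact permutation p = 0.00794, adjusted p = 0.027 over 17 lists) in GiprSyn-/- fat.

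Cebpa, the late adipogenic and hepatocyte C/EBP, passed in no comparison in either tissue. Its log2 differences in liver were 0.20 ± 0.08 (adjusted p = 0.111) and 0.23 ± 0.12 (adjusted p = 0.316) with the conjugate and -0.18 ± 0.12 (adjusted p = 0.411) in GiprSyn-/- mice in limma. In fat they were 0.25 ± 0.18 (adjusted p = 0.534) and 0.29 ± 0.14 (adjusted p = 0.215) with the conjugate and 0.24 ± 0.14 (adjusted p = 0.249) in GiprSyn-/- mice.

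Cebpb, the early adipogenic C/EBP, was high in a few libraries of the Gipr line. The 3 liver libraries of the higher library numbers, vehicle replicate 5 and conjugate replicates 4 and 5, had 22.2 to 24.6 FPKM and the other 12 libraries 5.95 to 11.8 FPKM. In fat the 2 such libraries, conjugate replicate 5 and knockout replicate 5, had 13.7 to 18.6 FPKM and the other 13 libraries 1.57 to 7.002 FPKM. Neither tissue showed an overlap, and 8.44% of genes tested in liver and 6.71% in fat likewise lay wholly above the other libraries there. Cebpa in liver and Srebf1 in fat did so too. The Cebpb transcript holds 67.2% G and C (GENCODE vM21), more than 99.7% of 21877 genes, and the role of base composition was not tested. Without those libraries the conjugate difference of Cebpb changed sign, from 0.24 to -0.09 ± 0.21 (adjusted p = 0.846) in liver and from 0.24 to -0.10 ± 0.25 (adjusted p = 0.822) in fat in limma. In the Glp1r line Cebpb had 23.5 to 49.7 FPKM in liver and 12.8 to 25.8 FPKM in fat, and no comparison passed.

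Klf15, the glucocorticoid-induced factor, came nearest to a call in fat. With vehicle the Gipr line had 13.9, 8.94, 13.96, 6.83 and 10.6 FPKM, with the conjugate 17.6, 20.9, 15.4, 16.4 and 20.8 FPKM and in GiprSyn-/- mice 11.5, 25.2, 18.6, 9.39 and 22.3 FPKM. The conjugate libraries did not overlap with vehicle, and the knockout libraries did. The log2 differences were 0.73 ± 0.24 with the conjugate (adjusted p = 0.0834 in limma) and 0.59 ± 0.24 (adjusted p = 0.12) in GiprSyn-/- mice, and neither passed. A fit of the 2 groups alone called the conjugate difference (limma adjusted p = 0.0332). In the Glp1r line it was 0.33 ± 0.21 (adjusted p = 0.462) in limma. Of 6 glucocorticoid-responsive genes tested in fat, Prodh, the proline dehydrogenase, rose in the Gipr line by 1.26 ± 0.21 (adjusted p = 0.0046) with the conjugate and 1.12 ± 0.21 (adjusted p = 0.00599) in GiprSyn-/- fat, where Sgk1, a kinase, fell with a log2 change of -0.64 ± 0.14 (adjusted p = 0.011). In liver 0 of 7 of that list were called by limma in any comparison, and Klf15 itself stood at 0.28 ± 0.12 (adjusted p = 0.14) with the conjugate in the Glp1r line.

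A few other regulators of adipogenesis passed in fat. Ebf2, a factor of preadipocyte and brown fat identity, rose with the conjugate in the Glp1r line by 0.67 ± 0.14 (adjusted p = 0.0226) and in the Gipr line by 0.43 ± 0.12 (adjusted p = 0.0459), and in GiprSyn-/- fat by 0.40 ± 0.12 (adjusted p = 0.0441) in limma. With the conjugate 2 of 12 rose in the Glp1r line, against 3.39% of all genes called, and 3 of 14 in the Gipr line, against 7.02%, and 0 fell in either. In GiprSyn-/- fat, against 12.3%, 2 of 14 rose and 1 fell, Egr2, an early inducer, at -0.62 ± 0.16 (adjusted p = 0.0257). In Glp1rWnt1-/- fat limma called 0 of 12, against 0.0%. Klf4, a KLF relative of Klf15, rose with the conjugate in fat of the Glp1r line by 0.86 ± 0.13 (adjusted p = 0.00622), and in GiprSyn-/- fat Ppargc1a, a coactivator of both PPARs, rose by 0.61 ± 0.17 (adjusted p = 0.0305). The brown or beige adipocyte marker score in fat was 1.38 against 1.82 with vehicle (exact permutation p = 0.0238, adjusted p = 0.405 over 17 lists) with the conjugate in the Glp1r line, 1.66 against 1.91 with vehicle (exact permutation p = 0.0159, adjusted p = 0.09 over 17 lists) with the conjugate in the Gipr line and 1.58 against 1.91 with vehicle (exact permutation p = 0.00794, adjusted p = 0.027 over 17 lists) in GiprSyn-/- fat. In GiprSyn-/- fat the Schwann cell score was 3.97 against 3.17 with vehicle (exact permutation p = 0.00794, adjusted p = 0.027 over 17 lists), the endothelial score 5.47 against 5.84 with vehicle (exact permutation p = 0.00794, adjusted p = 0.027 over 17 lists), the pancreas acinar score 0.65 against 0.86 with vehicle (exact permutation p = 0.00794, adjusted p = 0.027 over 17 lists) and the Kupffer cell score 2.37 against 1.28 with vehicle (exact permutation p = 0.0159, adjusted p = 0.045 over 17 lists). The B cell score there was 4.71 against 1.90 with vehicle (exact permutation p = 0.03175, adjusted p = 0.06 over 17 lists). B cell markers summed to 94.8 to 645 FPKM there, against 7.63 to 187 FPKM with vehicle. With the conjugate in the Gipr line the Schwann cell score was 4.04 against 3.17 with vehicle (exact permutation p = 0.0159, adjusted p = 0.09 over 17 lists) and the endothelial score 5.61 against 5.84 with vehicle (exact permutation p = 0.0238, adjusted p = 0.101 over 17 lists). In fat of the Gipr line 6 of the 7 acinar markers had a median under 1 FPKM and 2 were at 0 in all 15 libraries. In the Kupffer cell list 2 of the 5 markers had a median under 1 FPKM there. In the brown or beige adipocyte list 3 of the 6 markers had a median under 1 FPKM in fat of each line. Ppargc1a, which rose in GiprSyn-/- fat, is on that list and went against its score. The acinar, Kupffer cell and brown or beige scores are therefore not read as amounts of those cells. The part of the other listed cells in the fat results was not tested.

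Within groups, 12 regulator and target pairs were related over the 30 libraries of a tissue after removal of the group means, with permutation p-values adjusted over the 12. Pparg with Cidec in liver had r = 0.70 (adjusted p = 0.00072) and rho = 0.71 (adjusted p = 0.00108), and r was 0.72 without the 2 most extreme libraries, 0.70 in the Glp1r line and 0.75 in the Gipr line. Pparg with Fabp4 in fat had r = 0.81 (adjusted p = 0.00072) and rho = 0.66 (adjusted p = 0.00376), and r was 0.63 without the extremes. Cebpa with Adipoq in fat had r = 0.81 (adjusted p = 0.00084) and rho = 0.67 (adjusted p = 0.00376), and r was 0.72 without the extremes. Srebf1 with Fasn in liver had r = 0.56 (adjusted p = 0.0473) and rho = 0.32 (adjusted p = 0.225), but r was 0.25 without the extremes, -0.08 in the Glp1r line and 0.77 in the Gipr line, so the relation rests on those libraries. The other 8 did not pass in the permutation test, and r lay between -0.24 for Nr1h3 with Abca1 and 0.39 for Klf15 with Fkbp5, both in liver. The pairs of 1 library share its depth and composition.

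**Figure D5:**
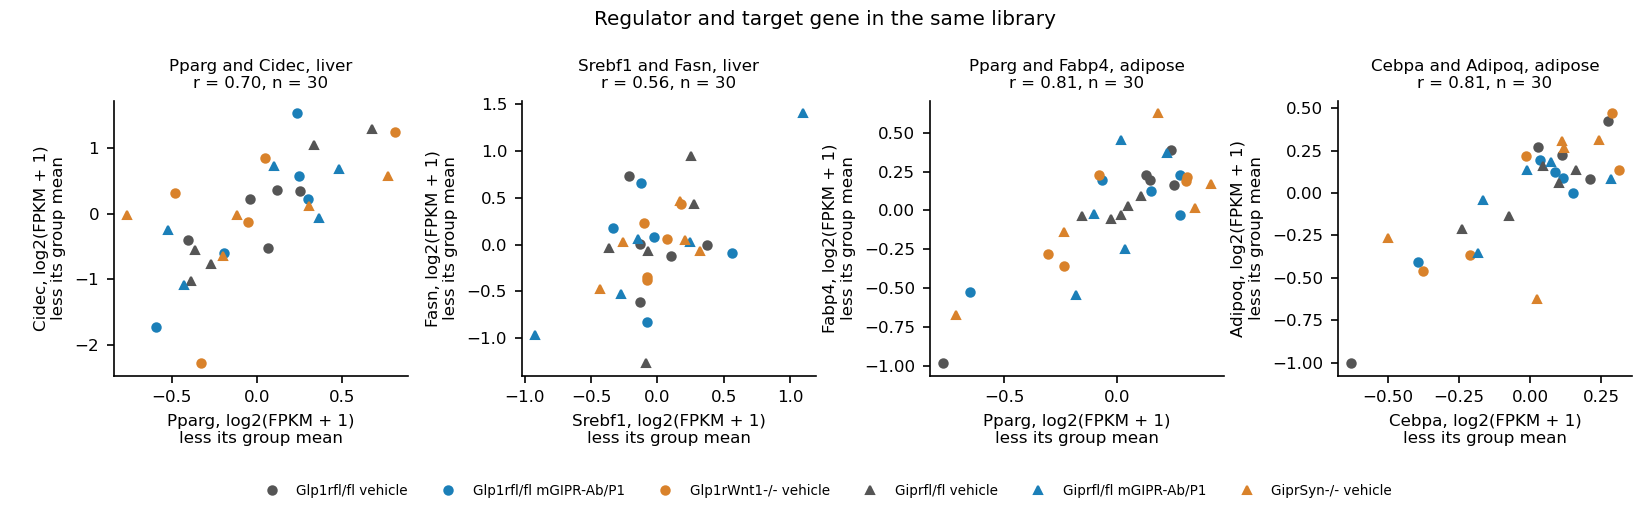
Log2(FPKM + 1) less the group mean of a regulator (x axis) and a target (y axis) for the 4 pairs that passed, 1 point per library and 30 per panel, with circles for the Glp1r line, triangles for the Gipr line and colours for the group. In liver, Srebf1 with Fasn has 1 conjugate library of the Gipr line at each end of the x axis, and without them r is 0.25; in fat, 1 vehicle library of the Glp1r line is lowest on both axes of both panels.

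The genes most like each member in group-centred level over the 30 libraries of a tissue were searched among 6116 genes in liver and 8727 in fat, with Pearson r in parentheses and no test. In liver they were Mid1ip1 (0.83), Sema4a (0.79) and Arsa (0.78) for Srebf1, Tmem115 (0.83), Rbpms2 (0.83) and Faah (0.82) for Mlxipl and Dbnl (0.91), Rab5c (0.90) and Psmf1 (0.90) for Nr1h3. For Pparg in liver they were Marchf8 (0.73), Atxn10 (0.72) and Dipk2a (0.71), for Ppara Ncor1 (0.71), Rabep1 (0.68) and Inpp5b (0.67) and for Fabp4 Lpl (0.76), Tpm1 (0.72) and Dcn (0.70). In fat the highest were Mgst1 (0.97), Iftap (0.96) and Etfa (0.96) for Fabp4, Gstk1 (0.92), Aamdc (0.92) and Nicn1 (0.92) for Pparg and Aldh2 (0.95), Ndufs7 (0.94) and Tmem143 (0.94) for Srebf1. For Cebpa in liver they were Mtfp1 (0.80), Cldn3 (0.79) and Znhit2 (0.79), for Cebpb Bola1 (0.87), Grcc10 (0.87) and Chchd2 (0.87) and for Klf15 Prodh2 (0.91), Mafg (0.90) and Ddt (0.89). In fat they were Myorg (0.90), Slc1a5 (0.88) and Eepd1 (0.87) for Mlxipl, Rarres2 (0.95), Naxd (0.90) and Etfb (0.89) for Nr1h3 and Pcnx (0.89), Hipk2 (0.88) and Arhgap21 (0.80) for Ppara, and Hadh (0.93), Pccb (0.92) and Rab34 (0.92) for Cebpa, Tomm6 (0.88), Mrpl54 (0.88) and Ndufa6 (0.87) for Cebpb and Aatk (0.88), Lipe (0.87) and Isoc2a (0.86) for Klf15. Some of the values in liver differed much between the lines. Rab5c with Nr1h3 had r = 0.19 in the Glp1r line and 0.96 in the Gipr line. Grcc10 with Cebpb had 0.12 and 0.97, and Rbpms2 with Mlxipl 0.30 and 0.91. Others were alike in both, such as Lpl with Fabp4 at 0.76 and 0.76. A pooled r is therefore not read as a relation that holds in both lines. All genes of a library share its depth and composition, whose part in these values was not tested.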

How the data were processed

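Bulk RNA-seq of 60 libraries was used as deposited, in 4 tables (1 per tissue and line, 15 libraries each) of FPKM that the authors computed, with RSEM named in the submitters' processing notes. The aligner, build, annotation and software versions were not given in the sources used here. No counts were used, so no count model was fitted. The members and gene lists were chosen with earlier results of these data known. Genes at 1 FPKM or more in at least 5 of 15 libraries were tested on log2(FPKM + 1), which damps fold changes of low genes, with limma 3.58.1 in R 4.3.3 (trended empirical Bayes, 3 groups per table, two-sided, Benjamini-Hochberg threshold 0.05). The interaction between lines used the 30 libraries of a tissue. Marker scores were tested by two-sided exact permutation of 5 against 5 libraries, and regulator and target pairs by permutation within groups, in Python 3.11.15 with numpy 2.4.6, pandas 2.3.3 and scipy 1.17.1. Depth was estimated from the steps of low FPKM values in genes with 1 transcript in GENCODE vM21. The text names all members, at most 3 called genes per list and comparison with the largest change, the genes of the 12 pairs, and the 3 genes most like a member, except that some list genes are not reported here. The fits were tested on simulated data. Alternatives were the pseudocount, filter, scaling, weights, a replicate block, depth or pancreas terms, and leaving out libraries. 12 pathway lists and 17 marker lists were used. The labels call the libraries biological replicates.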

Additional observations from a re-analysis of the deposited data

Results flagged for a closer look

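In 12 of 108 groups of 5 libraries, 1 library stood far from the other 4, with a gap to its neighbour above 0.71 of the range. That limit gives about 1 in 20 groups for independent, normally distributed values. The groups share the same 60 libraries over 9 genes and FPKM need not be normal, so 12 was not compared with chance. Srebf1 was 107 FPKM in conjugate replicate 3 of the Glp1r line in liver, against 56.9 to 70.7 FPKM in the other 4. Mlxipl was 10.1 FPKM in conjugate replicate 5 of the Glp1r line in fat, against 18.6 to 21.2 FPKM in the other 4. Pparg was 48.98 FPKM in vehicle replicate 2 of the Glp1r line in fat, against 92.4 to 101 FPKM in the other 4. Ppara was 0.863 FPKM in vehicle replicate 2 of the Glp1r line in fat, against 1.23 to 1.35 FPKM in the other 4. Ppara was 1.90 FPKM in conjugate replicate 2 of the Glp1r line in fat, against 0.860 to 1.14 FPKM in the other 4. Ppara was 25.4 FPKM in knockout replicate 1 of the Glp1r line in liver, against 34.2 to 36.2 FPKM in the other 4. Nr1h3 was 63.8 FPKM in conjugate replicate 5 of the Gipr line in fat, against 36.5 to 41.3 FPKM in the other 4. Nr1h3 was 60.6 FPKM in knockout replicate 5 of the Gipr line in liver, against 39.2 to 42.8 FPKM in the other 4. Cebpa was 165 FPKM in conjugate replicate 5 of the Glp1r line in fat, against 223 to 241 FPKM in the other 4. Cebpb was 18.6 FPKM in conjugate replicate 5 of the Gipr line in fat, against 4.28 to 5.57 FPKM in the other 4. Cebpb was 22.8 FPKM in conjugate replicate 2 of the Glp1r line in fat, against 15.6 to 17.02 FPKM in the other 4. Fabp4 was 7863 FPKM in vehicle replicate 2 of the Glp1r line in fat, against 17440.3 to 20332 FPKM in the other 4. Vehicle replicate 2 of the Glp1r line in fat accounts for 3 of these, and conjugate replicate 5 of that line for 2. That conjugate library had a macrophage marker sum of 3409 FPKM, against 438 to 672 FPKM in the other 4, and an adipocyte score of 9.44 against 10.23 to 10.32. GiprSyn-/- liver replicate 5, high in Nr1h3, had a macrophage sum of 682 FPKM, against 151 to 159.8 FPKM in the other 4, and the part of macrophages in these values was not tested. Vehicle replicate 2 also had the highest B cell marker score in fat, 6.41. No difference of a conjugate effect between the lines passed the interaction test for the 9 genes.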

How the results depend on the processing

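In conjugate livers of the Glp1r line the count of called genes went from 2 to 1 without the low-value filter, under median-of-ratios scaling, under rescaling to a common sum and with the pancreas term, to 4 with array weights (adding Pparg and Fabp4), and to 0 with depth as a term. Leaving out 1 library gave 1 to 2. In conjugate livers of the Gipr line the count went from 0 to 1 with array weights, and leaving out 1 library gave 0 to 1. In GiprSyn-/- livers it went from 3 to 1 without the filter and under median-of-ratios scaling, and to 0 under quantile normalization, and leaving out 1 library gave 0 to 3, with 0 without knockout replicate 2 or vehicle replicate 4. In fat the count went from 0 to 3 with array weights for the conjugate in the Glp1r line, to 1 with array weights or a fit of 2 groups for the conjugate in the Gipr line, and to 1 with array weights in GiprSyn-/- mice, where leaving out 1 library gave 0 to 1. The cause was not tested. The other comparisons stayed at 0.

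Of the relations, Srebf1 with Fasn in liver was -0.0774 in the Glp1r line alone and 0.25 without the 2 most extreme libraries, and Nr1h3 with Abca1 in liver was 0.25 in the Glp1r line alone, a change of sign. Pparg with Cidec was 0.70 in the Glp1r line alone, Pparg with Fabp4 in fat 0.70 and Cebpa with Adipoq 0.60 in the Gipr line alone, and these no longer passed. Among 2008 recomputed values of differences that were not called, 166 changed sign and 15 became called.

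Replicate numbers did not pair the libraries: 18 of 40 pairs had a correlation over 0.1, from -0.84 to 0.57, and 11 of 40 libraries correlated best with their own number. With the number as a replicate block, the counts were 2 in conjugate livers of the Glp1r line, 3 in GiprSyn-/- livers and 0 elsewhere, Nr1h3 lost its call (limma adjusted p = 0.0564) and Fabp4 in conjugate livers of the Glp1r line gained one at -0.64 (limma adjusted p = 0.0444). FPKM keeps no counts, so no counting interval was given.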
